A study of Rattus norvegicus with 72 samples.

Results

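Gfap and 8 further genes of satellite glia were followed across hours and lesion sites in rat dorsal root ganglia: Vim, Kcnj10, Glul, Slc1a3, Fabp7, S100b, Gja1 and Apoe. Each gene was taken by its symbol and represented by the probe set with the highest mean among those annotated to that symbol alone. All 9 were found among the 14217 genes the annotation names. A gene was tested if its mean over all arrays reached the 25th percentile of probe sets, 5.46 on the log2 scale, which 12276 genes did. Of the 9 genes 8 were tested. Kcnj10, with a mean of 5.08 and a range from 4.37 to 6.26, was below that level and is given by its values only.

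RNA from the L4 and L5 ganglia of Wistar rats aged 8 to 12 weeks was hybridised to 72 Affymetrix arrays after a crush of the sciatic nerve labelled proximal (22 arrays) or distal (29 arrays), or after sham surgery (21 arrays). Ganglia were taken at 1, 3 and 8 h (the early window), 12 and 16 h (middle) and 18, 24 and 28 h (late). At 12 h there were 2 proximal and 2 sham arrays, at 16 h 2 proximal arrays and 1 sham array, and 3 of each at every other hour, with 2 to 6 distal arrays an hour. The labels give neither the distance of the crush from the ganglion nor what the sham surgery consisted of. They do not say that arrays came from separate animals either, and the spread behind each p-value is that among arrays, which may be technical. Whole ganglia were measured, and more cells of a type and more RNA per cell cannot be told apart. Values are log2 intensities, and a difference of 1 is a doubling. The number of arrays limits the precision of all means.

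Satellite glia wrap the cell bodies of sensory neurons in a thin sheath. They take up the glutamate and potassium that neurons release and are coupled to each other by gap junctions. After an injury of the nerve they are known to gain the filament protein GFAP, much as astrocytes do in the brain, and in uninjured rat ganglia the protein is scarce. Several of these genes are also used by Schwann cells (Gfap, S100b, Fabp7), and Vim by fibroblasts, endothelium and macrophages, so none of the 9 marks satellite glia alone.

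Promoters are shown for Gfap and Fabp7, the genes with the largest changes after the lesions, taken from RefSeq (build GRCr8) from 250 bases before to 50 after the start of transcription. They run 5′ to 3′ in the direction of the gene. Capitals mark AATAAA, the AT-rich hexamer chosen after the sequences were read, which starts 43 bases before the start site of Gfap and 34 before that of Fabp7.

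Gfap, minus strand, chr10:88361612-88361911: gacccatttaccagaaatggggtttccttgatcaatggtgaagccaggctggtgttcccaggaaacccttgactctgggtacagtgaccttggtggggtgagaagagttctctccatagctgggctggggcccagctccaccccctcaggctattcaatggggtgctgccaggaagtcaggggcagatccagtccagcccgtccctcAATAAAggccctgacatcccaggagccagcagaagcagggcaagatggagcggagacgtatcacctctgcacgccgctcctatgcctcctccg

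Fabp7, plus strand, chr20:37669356-37669655: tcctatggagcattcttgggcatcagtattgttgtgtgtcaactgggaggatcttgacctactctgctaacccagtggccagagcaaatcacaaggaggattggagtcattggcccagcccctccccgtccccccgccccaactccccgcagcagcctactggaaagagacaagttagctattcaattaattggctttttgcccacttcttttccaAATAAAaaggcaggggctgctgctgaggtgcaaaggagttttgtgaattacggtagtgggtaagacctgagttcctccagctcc

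All 9 genes had at least 1 promoter in the table. On either strand, the STAT motif TTCNNNGAA was in none of the members' promoters, against 8.87% of all 33469 promoters of this length, and TGANTCA, bound by AP-1, was in that of Gja1 alone, against 7.33%. The hexamer AATAAA was in 21.6% of all promoters and in those of Gfap, Fabp7, Glul (1 of its 2) and Slc1a3. TATAAA was in 14.2% of all promoters and, among the members, in that of Vim. These are matches of letters within 300 bases and nothing more.

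Arrays also differed by a grouping that is called technical here, although what lay behind it was not tested. Arrays were clustered on the probe sets below the test level, which hold little signal, and divided into 4 sets, called A to D here. The number of sets was chosen and was not a result of the clustering. Of the 29 distal arrays 27 made up set A. Set D held all proximal and sham arrays at 1, 24 and 28 h, set C all of them at 3 and 8 h, and those at 12, 16 and 18 h lay in B or C. At 12 and 18 h proximal and sham arrays were divided between B and C alike, and at 16 h the only sham array was in B. Proximal and sham arrays could thus be compared hour by hour, whereas distal arrays were followed over their own hours. The direct comparison of distal with sham arrays in the late window called 61.8% of all genes, and lesion and set cannot be told apart in it. For the labelled tissue, 16 of 16 measured sensory neuron markers were above the test level. Of 12 markers of spinal cord glia and neurons, 7 were below it (Slc1a2, Olig2, Mog, Mobp, Opalin, Chat and Slc6a5) and 5 above it. The summed level of the 12 had a late median of 11.54 in distal, 10.97 in proximal and 10.89 in sham arrays. At 8 h these medians were 11.37, 10.6 and 10.48. The distal values carry the set difference, and the source of this signal was not tested.

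Gfap encodes glial fibrillary acidic protein, the intermediate filament by which reactive glia are commonly recognised. In proximal ganglia it read 7.90, 8.08 and 7.98 at 1 h, 7.96, 7.83 and 7.82 at 3 h, 8.25, 8.01 and 8.11 at 8 h, and 8.36 and 8.41 at 12 h. It then read 8.82 and 8.97 at 16 h, 9.69, 9.60 and 9.63 at 18 h, 10.18, 10.57 and 10.71 at 24 h, and 10.52, 11.05 and 11.11 at 28 h. In sham ganglia it read 7.88, 7.79 and 7.91 at 1 h, 7.96, 7.69 and 7.93 at 3 h, 7.70, 7.82 and 7.51 at 8 h, 8.06 and 8.61 at 12 h, and 7.42 at 16 h. Every proximal array from 18 h on was above every sham array of the series. Sham arrays from 18 h on read 8.35, 7.75 and 7.96 at 18 h, 8.10, 8.45 and 9.44 at 24 h, and 8.25, 7.72 and 7.82 at 28 h.

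Tests were made with limma on all 72 arrays, with p adjusted by Benjamini-Hochberg over the genes tested. Averaged over 18, 24 and 28 h, Gfap was 2.13 ± 0.14 log2 higher in proximal than in sham ganglia (SE, 9 arrays each, adjusted p = 1.34e-18), a 4.39-fold rise that ranked 12 from the highest of 12276 genes. At single hours it rose by 1.62 ± 0.23 at 18 h (adjusted p = 3.31e-06), 1.82 ± 0.23 at 24 h (2.28e-07) and 2.96 ± 0.23 at 28 h (3.9e-14), the last a 7.79-fold difference. At 16 h the difference was 1.47 ± 0.35, with 2 proximal arrays against 1 sham array (adjusted p = 0.072). At 8 h, 3 proximal arrays all exceeded 3 sham arrays, with a difference of 0.45 ± 0.23 that did not pass the test (adjusted p = 0.431). At 1, 3 and 12 h the differences were 0.12, 0.01 and 0.05. The change between the early window (1, 3 and 8 h) and the late window (18, 24 and 28 h) was itself larger in proximal than in sham ganglia by 1.94 ± 0.19 (adjusted p = 5.6e-11; 8.67% of all genes were called). The excess of the difference at 28 h over that at 18 h did not pass its test (1.34 ± 0.33, adjusted p = 0.0919).

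In distal ganglia Gfap read 7.70, 7.67, 7.98 and 7.62 at 1 h, 8.10, 7.40 and 7.72 at 3 h, 8.14, 7.81, 8.23, 7.80 and 7.73 at 8 h, and 8.77, 7.62 and 8.74 at 12 h. It read 8.67 and 8.82 at 16 h, between 8.85 and 9.79 over 6 arrays at 18 h, 11.07, 10.61 and 10.80 at 24 h, and 10.71, 10.91 and 10.78 at 28 h. All distal arrays of the late window exceeded all those of the early window. At 12 h the arrays disagreed, 2 near the level of 16 h and 1 at the level of the first hours. The mean of the late window was 2.50 ± 0.12 above that of the early window (SE, 12 arrays each, adjusted p = 8.91e-24), a 5.67-fold rise that ranked 8 from the highest. Against the mean of 1 and 3 h, Gfap in distal ganglia rose by 1.00 ± 0.23 at 16 h (adjusted p = 0.0144), 1.57 ± 0.16 at 18 h (1.5e-10), 3.08 ± 0.20 at 24 h (9.67e-18) and 3.06 ± 0.20 at 28 h (4.6e-18). The differences at 8 h (0.20) and 12 h (0.64) did not pass (adjusted p = 0.823 and 0.071). The step from 18 to 24 h was 1.52 ± 0.20 (adjusted p = 1.4e-06; 1.62% of all genes were called), and 28 h differed from 24 h by -0.02 ± 0.23 (adjusted p = 1; limma called 0% of all genes, and 0 members had an unadjusted p under 0.05).

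**Figure D1:**
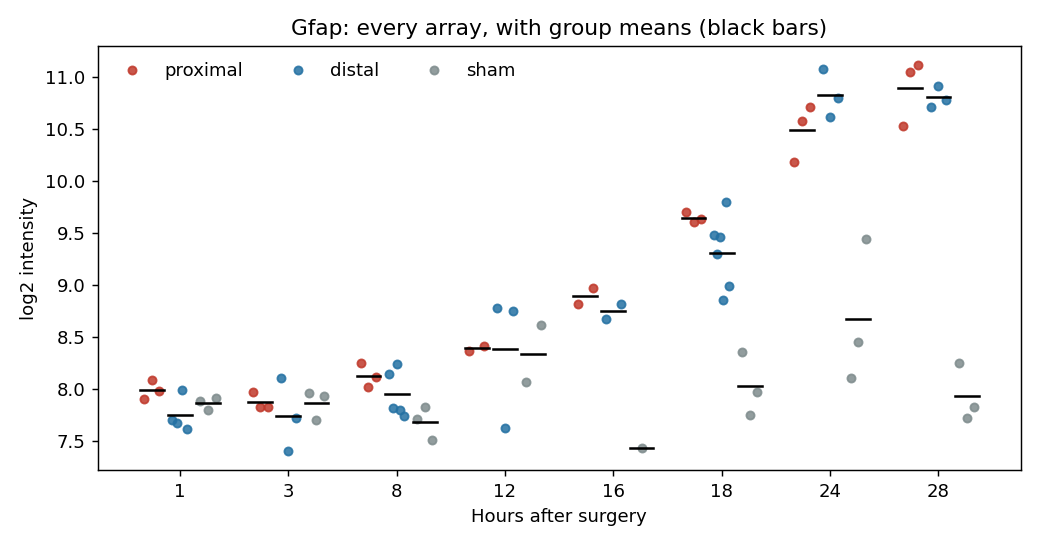
Log2 intensity of Gfap on each of the 72 arrays by hours after surgery, with proximal, distal and sham arrays side by side and black bars at the group means. Proximal arrays from 18 h on lie between 9.60 and 11.11, above all sham arrays, of which the highest is 9.44 at 24 h.

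A comparison of 24 and 28 h with 1 h keeps proximal and sham arrays in set D, and distal arrays in set A except 1 of 4 at 1 h. It was added after the sets had been seen. Over this interval Gfap rose by 2.70 ± 0.20 in proximal ganglia (adjusted p = 2.22e-15) and by 3.07 ± 0.19 in distal ganglia (2.92e-19), and was 0.43 ± 0.20 higher in sham ganglia (0.347). The rise exceeded that of sham by 2.27 ± 0.29 in proximal ganglia (adjusted p = 2.82e-07) and by 2.64 ± 0.27 in distal ganglia (5.76e-10). Distal and proximal rises differed by 0.37, with a 95% interval from -0.18 to 0.92, and this did not pass the test (adjusted p = 0.451), so no order between the lesion sites was found. In the direct late comparison, which carries the set difference, Gfap was 2.11 ± 0.13 higher in distal than in sham ganglia.

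The sham arrays were not all alike. The array c at 24 h read 9.44 for Gfap, nearly 1 log2 unit above the next sham array of that hour, and had 10.16 for Atf3, a transcription factor induced by injury of sensory neurons, against 8.45 and 9.30 on the other sham arrays at 24 h. Atf3 on sham arrays ran between 6.14 and 11.55. Array b at 12 h had 11.55 for Atf3 with Gfap at 8.61. Array a at 28 h had 10.15 with Gfap at 8.25, and array a at 16 h 9.97 with 7.42. Over the 21 sham arrays the Pearson r of Gfap with Atf3 was 0.567, and 0.523 without array c at 24 h. The source of the high Gfap value on array c was not tested. Without array c at 24 h the late Gfap difference between proximal and sham ganglia was 2.26 ± 0.13. Sham arrays in the late window were higher in Gfap than sham arrays in the early window by 0.40 ± 0.14 (adjusted p = 0.0144), a comparison that spans sets and called 40.3% of all genes.

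Fabp7 encodes brain lipid-binding protein, a carrier of fatty acids made by satellite glia and by radial glia of the developing brain. It fell after both lesions at 8 h. At 8 h it read 8.40, 8.19 and 7.65 in proximal ganglia, against 9.84, 9.73 and 10.15 in sham ganglia, and the groups did not overlap. The difference was -1.82 ± 0.33 (adjusted p = 0.00393), a 3.53-fold fall that ranked 4 from the lowest of all genes. All 6 arrays lay in set C. Of the genes called at this hour (1.75% of all tested), 204 were higher and 11 lower, and Fabp7 was the only called member. Without sham array c at 8 h the difference was -1.70 and no longer passed (adjusted p = 0.0553).

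In distal ganglia at 8 h Fabp7 read 8.64, 9.04, 8.40, 9.40 and 9.47, all in set A, against 10.82, 10.63 and 10.79 at 3 h and 10.88, 10.76, 11.00 and 10.64 at 1 h. Against 1 and 3 h it fell by 1.79 ± 0.24 on the log2 scale at 8 h (adjusted p = 2.41e-06), the lowest difference of all 12276 genes, and by 1.02 ± 0.28 at 12 h (0.0347), when it read 9.74, 9.07 and 10.48. In proximal ganglia at 12 h it read 9.30 and 10.21, against 9.64 and 10.73 in sham ganglia, a difference of -0.44 that did not pass (adjusted p = 0.972). The low level did not last. At 16 h Fabp7 read 10.79 and 11.03 in proximal and 11.49 and 11.20 in distal ganglia, against 10.80 in the sham ganglion. At 18 h it read 11.32, 11.18 and 11.08 in proximal ganglia and between 10.51 and 11.78 in distal ganglia, against 11.37, 11.09 and 9.10 in sham ganglia. In distal ganglia the step from 8 to 18 h was 2.29 ± 0.25 (adjusted p = 1.35e-09; 2.79% of all genes were called). The low sham array at 18 h (9.10) was the 1 sham array of that hour in set C. In the same set and hour, proximal array c read 11.08 and distal array do 10.51. The source of the low value was not tested.

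**Figure D2:**
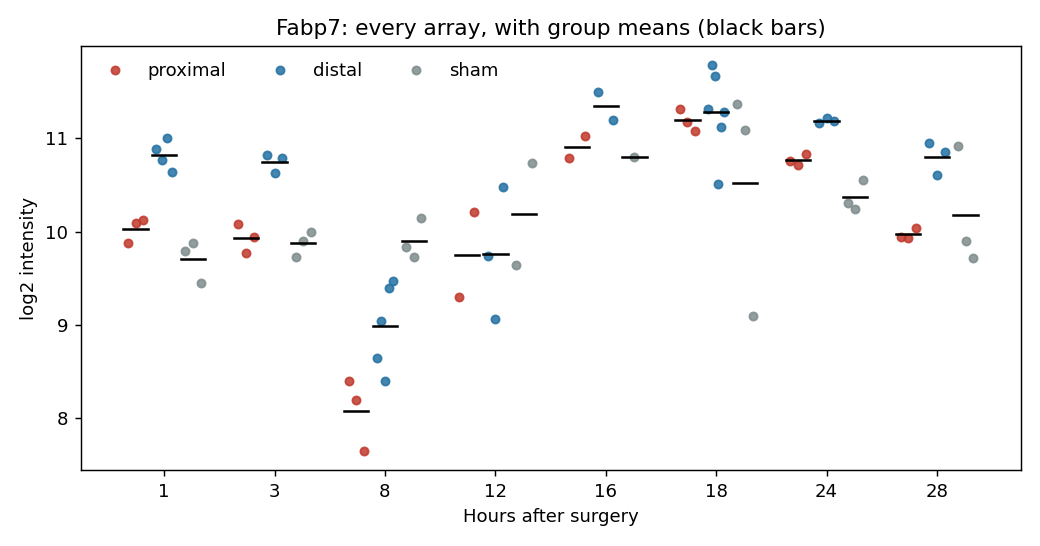
Log2 intensity of Fabp7 on each array by hours after surgery, with proximal, distal and sham arrays side by side and black bars at the group means. At 8 h the 3 proximal arrays lie between 7.65 and 8.40, below the 3 sham arrays at 9.73 to 10.15. The 5 distal arrays lie between 8.40 and 9.47. They are in set A and the sham arrays in set C, so lesion and set cannot be told apart between these groups.

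The step from 3 to 8 h lies within 1 set for each lesion and was also added after the sets had been seen. Fabp7 fell by 1.85 ± 0.33 in proximal ganglia (adjusted p = 0.00395; 0.0652% of all genes were called) and by 1.76 ± 0.30 in distal ganglia (0.000483; 0.554% of all genes), and differed by 0.03 ± 0.33 in sham ganglia (adjusted p = 1; 0% of all genes). The difference between lesions in this step was tested as well. The step in proximal minus that in sham ganglia was -1.88 ± 0.47 (adjusted p = 0.529, 0% of all genes called) and the step in distal minus that in sham ganglia was -1.78 ± 0.45 (0.171, 0.0163% of all genes called), and neither passed. Between distal and proximal ganglia the step differed by 0.09, with a 95% interval from -0.81 to 0.99 (adjusted p = 1, 0% of all genes called). In these comparisons between lesions limma called 0 members, with an unadjusted p under 0.05 for 2, 2 and 0 of 8 in that order.

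The late window gave another picture of Fabp7. In distal ganglia its mean was 0.90 ± 0.17 above that of the early window (adjusted p = 5.53e-05), but the early window holds the low arrays of 8 h, and 24 and 28 h differed from 1 h by 0.17 ± 0.26 (0.728). In proximal ganglia it differed from sham by 0.29 ± 0.19 in the late window (adjusted p = 0.45), by 0.05 without sham array c at 18 h and by 0.43 without sham array a at 18 h, neither called. It passed with all sham arrays pooled (0.51, adjusted p = 0.0327). Among all genes tested, the profiles most like that of Fabp7 over the 43 proximal and sham arrays were Adam17 (a membrane protease that sheds receptors and cytokines), Tnc (the matrix protein tenascin C) and Itgb3 (an integrin subunit), with Pearson r of 0.887, 0.863 and 0.832, and 0.833, 0.788 and 0.771 over the 29 distal arrays. These genes were picked after the values of Fabp7 had been seen. Their differences between proximal and sham ganglia at 8 h, on arrays that also chose them, were -0.70, -1.05 and -1.03 in the same order and are given with no test.

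Other satellite glia genes did not fall at 8 h in proximal against sham ganglia by this test. Of 10 tested, Sox10 (a transcription factor of peripheral glia, 0.62 ± 0.17, adjusted p = 0.0451) and Aldoc (a glycolytic enzyme, 0.40 ± 0.08, 0.00792) were higher in proximal ganglia, 0 were lower, and the median difference was 0.35, against 0.07 over all genes. Markers of other cells gave 0 of 16 for macrophages, 0 of 9 for myelinating Schwann cells, 0 of 10 for fibroblasts and 2 of 16 for sensory neurons (Tubb3 and Avil, both higher). At this hour 1.75% of all genes were called. The summed level of the 9 skeletal muscle markers ran between 12.75 and 12.92 in proximal ganglia and between 12.74 and 12.93 in sham ganglia, while the median difference of the 8 tested was -1.24 and 0 were called. A sum follows its brightest genes, so these sums do not show equal muscle RNA. In distal ganglia at 8 h that summed level ran between 12.95 and 14.61, and against 3 h the 8 tested had a median difference of 1.25 with 0 called. The macrophage, neuron, fibroblast and myelinating Schwann cell markers gave 0 calls in that step, which called 0.554% of all genes. The part of the muscle markers in the distal fall of Fabp7 was not tested.

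The glutamate and coupling genes gave few calls. Glul encodes glutamine synthetase, which turns the glutamate taken up by satellite glia into glutamine. At 28 h it read 11.43, 11.54 and 11.53 in proximal ganglia, against 11.00, 11.13 and 10.96 in sham ganglia. At 8 h it read 10.90, 11.18 and 10.97 in proximal ganglia, against 10.40, 10.61 and 10.55 in sham ganglia. Neither pair of groups overlapped, with differences of 0.47 ± 0.16 at 28 h (adjusted p = 0.0982) and 0.50 ± 0.16 at 8 h (0.1), and neither passed. At 1 h the order was turned round, with 10.92, 10.66 and 10.89 in proximal ganglia, against 11.18, 11.50 and 11.23 in sham ganglia, a difference of -0.48 ± 0.16 (adjusted p = 1).

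Between 1 h and the mean of 24 and 28 h Glul rose in proximal ganglia by 0.48 ± 0.14 (adjusted p = 0.0112) and differed by -0.31 ± 0.14 in sham ganglia (0.324). The difference between these changes was 0.79 ± 0.20 and passed (adjusted p = 0.0251). It no longer passed without proximal array b at 1 h (0.71, adjusted p = 0.103), without sham array b at 1 h (0.69, 0.162) or without the 28 h arrays (0.63, 0.685). In distal ganglia the same interval gave 0.16 ± 0.13 (adjusted p = 0.457), and 18 h was 0.55 ± 0.12 below 8 h (0.00298). In the late window Glul differed between proximal and sham ganglia by 0.25 ± 0.09 (adjusted p = 0.0825). This difference passed in 6 of 15 other alternatives, among them array weights (0.32, adjusted p = 5.12e-05) and the technical set as a block (0.25, 0.00732), and without proximal array c at 18 h (0.32, 0.0146). Its other 2 probe sets gave 0.52 ± 0.26 (1367633_at) and 0.38 ± 0.13 (1386870_at), in the same direction. In distal ganglia, late against early, both were lower (-0.89 ± 0.23, adjusted p = 0.00267, and -0.34 ± 0.12, 0.0228, over every probe set), whereas the brightest (1367632_at) differed by -0.13 ± 0.08 (0.265).

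Slc1a3 encodes the glutamate and aspartate transporter GLAST, and Gja1 connexin 43, a channel protein of glial gap junctions. The set accounted for a share of 0.767 of the variance of Slc1a3 over all arrays and 0.665 of that of Gja1, against 0.102 for Gfap and 0.244 for Fabp7. Lesion and hour together accounted for 0.486, 0.627, 0.953 and 0.836 in the same order. Slc1a3 ran between 6.49 and 7.98 in set C, and between 8.61 and 9.10 in set B, which did not overlap. At 18 h it read 9.03 and 9.08 (set B) and 7.73 (set C) in proximal ganglia, against 8.99 and 9.01 (set B) and 7.98 (set C) in sham ganglia. The difference in the late window was 0.04 ± 0.22 for Slc1a3 and 0.12 ± 0.17 for Gja1 between proximal and sham ganglia (adjusted p = 0.954 and 0.79).

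In distal ganglia Gja1 was 0.43 ± 0.15 higher in the late than in the early window (adjusted p = 0.0288), with 8.74 to 10.53 over the late arrays and 9.36 to 10.71 over the early ones. Its probe set 1369640_at gave -0.43 ± 0.17 (0.0536) and 1369639_at, below the test level, 0.09 ± 0.10, so the direction differed between probe sets. The call was also lost without any of 4 single arrays and without the 24 or the 28 h arrays. The probe sets of Slc1a3 disagreed as well. In the late window 1371130_at was 0.52 ± 0.13 higher in proximal than in sham ganglia (adjusted p = 0.00504 over every probe set), which the brightest, 1368565_at, did not show. In distal ganglia, late against early, 1388064_a_at fell by 0.57 ± 0.13 on the log2 scale (0.000758) and 1371130_at was 0.31 ± 0.12 higher (0.0389), against -0.04 ± 0.20 for the brightest.

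**Figure D3:**
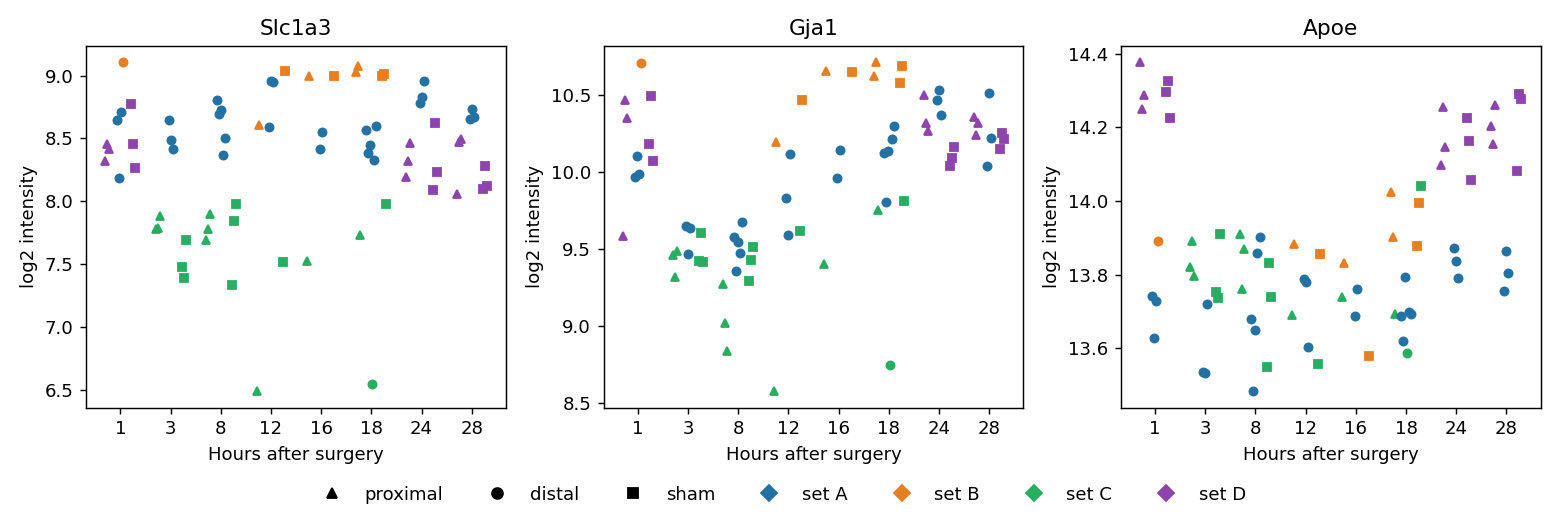
Log2 intensity of Slc1a3, Gja1 and Apoe on each array by hours after surgery, with the marker shape for the lesion and the colour for the technical set. Arrays of set C lie lowest for Slc1a3 (6.49 to 7.98), and those of set D highest for Apoe (14.06 to 14.38).

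Vim, S100b and Apoe were among the brightest genes of the arrays, at or above the 99.7th percentile of named genes, and differed little between groups. Signal can be compressed at such levels, which was not tested, so small differences here do not show stable RNA. Vim encodes vimentin, the filament protein that pairs with GFAP in reactive astrocytes. In the late window it ran from 13.10 to 13.47 in proximal ganglia, against 12.96 to 13.32 in sham ganglia, and the groups overlapped. The difference was 0.16 ± 0.05 (adjusted p = 0.0285), a 1.12-fold rise, and it no longer passed when any of 8 single arrays was left out, without the 24 or the 28 h arrays, or with only the arrays compared. In distal ganglia Vim rose by 0.19 ± 0.05 between the early and the late window (adjusted p = 0.000881) and by 0.33 ± 0.07 between 1 h and the mean of 24 and 28 h (0.000447). The rise over these hours exceeded the change in sham ganglia, which was -0.14 ± 0.07, by 0.47 ± 0.10 (adjusted p = 0.00309). At 24 and 28 h Vim read 13.55 to 13.71 in distal ganglia, against 13.18 to 13.36 at 1 h, without overlap.

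S100b encodes a calcium-binding protein of Schwann cells and satellite glia. It stayed between 13.33 and 13.66 on all 72 arrays. It was higher in proximal ganglia at 18 h, at 13.66, 13.64 and 13.64, against 13.47, 13.53 and 13.45 in sham ganglia (0.17 ± 0.05, adjusted p = 0.0448), and did not pass at any other hour or window. That call was lost when any of 4 of the 6 arrays was left out. Apoe encodes apolipoprotein E, the main lipid carrier made by these glia. It read from 14.06 to 14.38 on the 18 arrays of set D and from 13.48 to 14.04 on all others, without overlap. The set accounted for a share of 0.777 of its variance, and lesion and hour together for 0.864. Since set D is made up of the proximal and sham arrays of 1, 24 and 28 h, set and hour cannot be told apart in these shares. Within hours it differed between proximal and sham ganglia by -0.10 to 0.21, and the late difference was -0.03 ± 0.05 (adjusted p = 0.832). Kcnj10, the inward rectifier channel that takes up potassium, averaged 5.12 in proximal and 4.68 in distal ganglia in the late window, against 5.27 in sham ganglia, all below the test level, and was not tested.

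Counted together, 2 of 8 members (Gfap and Vim) were called between proximal and sham ganglia in the late window, against 9.71% of all genes, and the median difference of the 8 was 0.14, against -0.02 over all genes. Between the late and early windows in distal ganglia 4 of 8 (Gfap, Vim, Fabp7 and Gja1) were higher, 0 lower, against 25.3% of all genes called, with a median of 0.14, against 0.03. In proximal ganglia late against early, which spans sets, 4 of 8 were higher against 33.6% of all genes, and in sham ganglia late against early also 4 of 8, against 40.3%. In the direct late comparison of distal with sham ganglia 3 of 8 were higher (Gfap, Vim and Fabp7) and 1 lower (Apoe), against 61.8% of all genes called. In the early window limma called 0 of 8 (0.13% of all genes, with 1 member at an unadjusted p under 0.05) and in the middle window, 12 and 16 h, 0 of 8 (0.114%, with 4 members).

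By the hour, limma called 0 of 8 between proximal and sham ganglia at 1 h (0% of all genes), 3 h (0%), 12 h (0.0326%) and 16 h (0.0489%), with an unadjusted p under 0.05 for 1, 0, 0 and 1 of them. It called 1 at 8 h (Fabp7), 2 at 18 h (Gfap and S100b, 1.51% of all genes), 1 at 24 h (Gfap, 1.21%) and 1 at 28 h (Gfap, 4.47%). Against the mean of 1 and 3 h in distal ganglia, 1 of 8 was called at 8 h (Fabp7, 1.83% of all genes) and 2 at 12 h (Vim higher and Fabp7 lower, 2.54%). At 16 h 1 was called (Gfap, 0.912%), at 18 h 1 (Gfap, 11.9%), at 24 h 2 (Gfap and Vim, 16.3%) and at 28 h 2 (Gfap and Vim, 15.2%). Between 1 h and the mean of 24 and 28 h, 2 of 8 rose in proximal ganglia (Gfap and Glul, 20.3% of all genes called), 2 in distal ganglia (Gfap and Vim, 16.7%) and 0 in sham ganglia (1.88%, with an unadjusted p under 0.05 for 2). The change differed from that in sham ganglia for 2 members in proximal (Gfap and Glul, 1.21% of all genes) and 2 in distal ganglia (Gfap and Vim, 4.45%). Between distal and proximal ganglia it differed for 0 members by limma (6.56% of all genes, with an unadjusted p under 0.05 for 1), and over the whole windows for 1, Glul (21.5% of all genes, a comparison that spans sets).

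**Figure D4:**
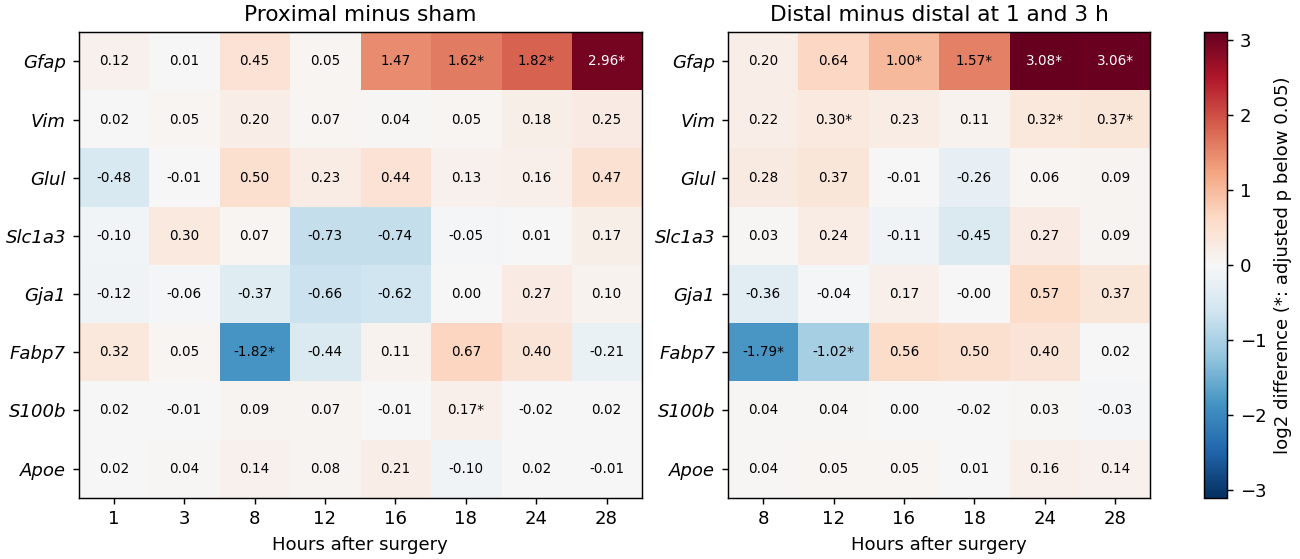
Log2 differences of the 8 tested genes by hours after surgery, proximal minus sham on the left and distal minus the mean of distal 1 and 3 h on the right, with an asterisk at an adjusted p below the threshold. Gfap is called in both panels at 18, 24 and 28 h, and Fabp7 in both at 8 h (-1.82 and -1.79).

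**Figure D5:**
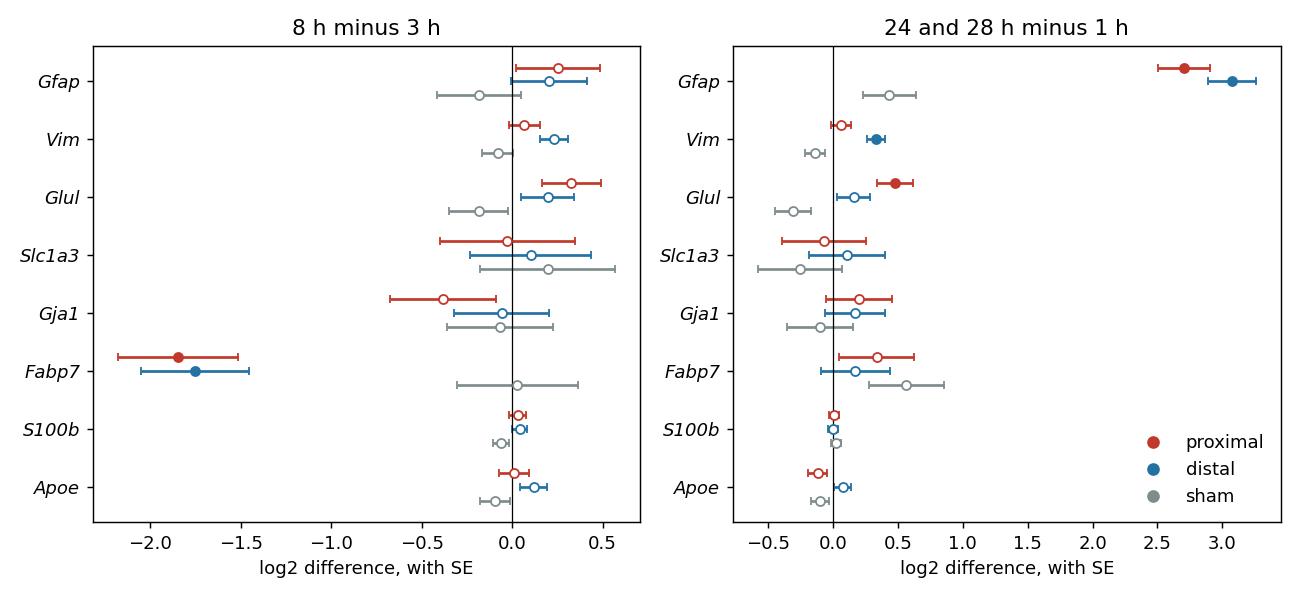
Changes over hours, on the log2 scale with the standard error, of the 8 tested genes in proximal, distal and sham ganglia: 8 h minus 3 h on the left, and the mean of 24 and 28 h minus 1 h on the right. Filled points were called. Fabp7 is near -1.85 in proximal and -1.76 in distal ganglia at 8 h, and Gfap rises by 2.70 and 3.07 by 24 and 28 h.

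Other gene lists, chosen with earlier results of these data known, set the members in context. The late comparison of proximal with sham ganglia called 9.71% of all genes, 657 higher and 535 lower of 12276. Of 14 tested genes listed as reactive glia genes, 11 were higher in proximal than in sham ganglia in the late window and 0 lower, with a median of 0.65. Among them were Tgm1, a transglutaminase (1.66 ± 0.10, adjusted p = 9.72e-20), Timp1, an inhibitor of metalloproteases (1.33 ± 0.14, 3.32e-11), and Cebpd, a transcription factor of the acute phase (1.19 ± 0.15, 1.75e-08). Lcn2 and Serpina3n, both widely used marks of reactive astrocytes, were below the test level. Whole ganglia do not show which cells the changes in this list came from. Other satellite glia genes gave 1 of 10, Atp1b2, a subunit of the sodium pump (0.33 ± 0.09, 0.0112). Besides Gfap and Vim, 0 of 14 intermediate filament genes rose and 1 fell, Synm, a filament linker (-0.24 ± 0.06, 0.00185). Of 17 genes for glutamate handling, potassium channels and gap junctions, 1 rose, the channel protein Panx1 (0.51 ± 0.16, 0.036), a call that was lost in 12 of 18 fits that left out 1 array and without the 24 or the 28 h arrays (adjusted p = 0.218 and 0.501).

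Of 11 tested genes of cytokine and STAT3 signalling, a route by which Gfap is known to be induced in astrocytes, 4 were higher: the cytokine Il6 (3.46 ± 0.23, adjusted p = 5.63e-18), the kinase Jak2 (0.86 ± 0.15), the transcription factor Stat3 (0.32 ± 0.06) and its feedback inhibitor Socs3 (1.09 ± 0.11). The other 7 were not called. Another 4 of the list, Lif, Osm, Il11 and Clcf1, were below the test level. The part of this route in the rise of Gfap was not tested. Of 11 lipid carrier genes 4 were higher and 1 lower, with the cholesterol exporters Abca1 (1.06 ± 0.20) and Abcg1 (-0.66 ± 0.12) in opposite directions. Some markers of other cells were called as well, beside 9.71% of all genes in this comparison. Of 16 macrophage markers 9 were higher in proximal ganglia, with a median of 0.50. Their summed level ran from 11.66 to 12.87 in proximal and 11.50 to 12.27 in distal ganglia, against 11.12 to 12.02 in sham ganglia, and none was below the test level. Myelinating Schwann cell markers gave 0 of 9, with a summed level from 15.49 to 15.65 in proximal, 15.25 to 15.54 in distal and 15.43 to 15.63 in sham ganglia. Genes listed as non-myelinating and repair Schwann cell markers gave 2 higher (Gap43 and Shh) and 1 lower (Ngfr) of 7. Whole ganglia do not show which cells, neurons included, these 3 changes came from. Fibroblast markers gave 3 of 10 higher (Postn, Fn1 and Mgp), endothelial markers 0 of 9, skeletal muscle markers 0 of 8, spinal cord markers 0 of 5 and sensory neuron markers 2 of 16 lower (Rbfox3 and Scn10a). The Scn10a call was lost in 3 of 18 fits that left out 1 array. The part of these cells in the rise of Gfap was not tested.

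In distal ganglia, late against early, the lists gave other counts. This comparison called 25.3% of all genes, 1891 higher and 1212 lower of 12276, and each count below stands beside that share. Of the other satellite glia genes 5 of 10 were higher, among them Atp1b2 (0.98 ± 0.08, adjusted p = 3.17e-14) and Sox10 (0.81 ± 0.09, 2.49e-10), and 1 was lower, Pmp2, a myelin lipid-binding protein (-0.55 ± 0.14, 0.00195), with a median of 0.28. Of the reactive glia genes 10 of 14 were higher and 0 lower, with a median of 0.40 and with Tgm1 at 1.58 ± 0.09 (2.36e-21). Sensory neuron markers gave 7 of 16 lower and 0 higher, with Isl1, a transcription factor of sensory neurons, at -0.84 ± 0.15 (2.21e-05). Fibroblast markers gave 4 of 10 lower (Col1a2, Col3a1, Dcn and Lum) and 0 higher. Macrophage markers gave 7 of 16 higher and 3 lower (C1qb, Cd163 and Mrc1). Myelinating Schwann cell markers gave 3 higher and 1 lower of 9, and endothelial markers 1 higher of 9. Skeletal muscle markers gave 0 of 8 with a median of 0.80, against 0.03 over all genes. The part of these markers in the distal rise of Gfap was not tested.

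The 5 genes whose profiles were most like that of Gfap over the 43 proximal and sham arrays were Smagp, a small adhesion glycoprotein (Pearson r = 0.935), Ifitm3, an interferon-induced membrane protein (0.933), Adcyap1, the neuropeptide PACAP (0.932), Pvr, an adhesion receptor (0.924), and C9h6orf141 (0.924). Over the 29 distal arrays the r values were 0.930, 0.923, 0.932, 0.948 and 0.937. The arrays share hours and technical sets, so these values describe the profiles only. In the late window the 5 genes rose in proximal against sham ganglia by 2.21, 1.06, 1.78, 2.12 and 2.04 on the log2 scale, in the same order. Among the members themselves, the r of Gfap over the same 43 arrays was 0.397 with Vim, 0.564 with Glul and 0.336 with Fabp7.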

How the data were processed

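Qiagen RNeasy was used for extraction, per the labels' protocols. The authors deposited log2 intensities summarised by RMA for 31099 probe sets, per the submitters' processing notes, which name no version. Lesion, hour and array letter came from the labels, and every column of values was used. The 57 controls were dropped. By the platform annotation, which can be old, 20826 probe sets had 1 symbol, 436 several and 9780 none, and only the first were named.

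Each gene was represented by its brightest probe set, and genes below the 25th percentile were not tested. limma 3.58.1 in R 4.3.3 fitted 24 group means to 72 arrays (48 residual degrees of freedom, empirical Bayes with trend), with a two-sided threshold of 0.05 on the p-value adjusted by Benjamini-Hochberg for a call. Window comparisons weight hours equally, so they can differ slightly from differences of means over arrays. The 1 sham array at 16 h was assumed to vary like the others. The code was tested on simulated data. The arrays hold no identical pair (0 of all pairs), and their medians ran from 6.88 to 7.08, with single values from 3.27 to 14.64.

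The 9 genes and the gene lists were chosen with earlier results of these data known. Named genes are the 9, the 5 most like Gfap over the proximal and sham arrays, and the 3 of each list with the smallest p in the late proximal comparison, of which the text gives part. Stat3, Atf3, the genes most like Fabp7 and those named from the lists at 8 h were chosen after their values were seen. The technical sets came from Ward clustering of the arrays, cut at a chosen number of 4, also after the values were seen. Alternatives were no filter, a filter at the 50th percentile, another quantile normalization, array weights, every probe set, only the arrays compared, the array letter as a replicate block, the technical set as a block, pooled sham arrays, and leaving out arrays or hours. Deviations of proximal and sham arrays with the same letter correlated at 0.478 to 0.696 at 1 h. At 18 h the range was 0.618 to 0.799, and at 12 h the value was 0.76. In both lesions the letters at 12 and 18 h were divided between sets B and C alike, so the values of those hours carry the set difference. With 2 arrays per group at 12 h, both letters must give the same value. The correlations were below 0 in all pairs at 3 and 8 h. They ran from -0.314 to 0.575 at 24 and 28 h, so the letters were not taken as pairs.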

Additional observations from a re-analysis of the deposited data

Results flagged for a closer look

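One distal array at 18 h, labelled do, lay far from the other 5 arrays of its group for 3 genes: Glul read 10.40 (others 10.88 to 11.03), Slc1a3 6.55 (others 8.32 to 8.60) and Gja1 8.74 (others 9.81 to 10.30). It was the only distal array in set C. In all, 27 pairs of a gene and a group were checked, and chance marks about 1 in 20. Only groups of at least 4 arrays were checked, which were the distal groups at 1, 8 and 18 h. Proximal and sham groups were too small for this check.

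Changes over time differed between lesions for 3 genes. For Gfap the late minus early change was 1.94 larger in proximal than in sham ganglia (limma, adjusted p = 5.6e-11). From 1 h to 24 and 28 h the change of Gfap was larger than in sham ganglia by 2.27 in proximal (2.82e-07) and by 2.64 in distal ganglia (5.76e-10). Over these hours Glul changed by 0.79 more in proximal than in sham ganglia (0.0251), and Vim by 0.47 more in distal than in sham ganglia (0.00309). Between the early and late windows the change of Glul was -0.46 in distal relative to proximal ganglia (0.00733), a comparison that spans technical sets.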

How the results depend on the processing

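The late Gfap difference between proximal and sham ganglia stayed called in every alternative run, between 2.04 and 2.26 with single arrays left out and between 1.72 and 2.39 otherwise, and the distal rise of Gfap between 2.45 and 2.56 and between 2.25 and 3.00. The Fabp7 difference at 8 h ran from -1.98 to -1.61 with single arrays left out, and was lost only without sham array c (-1.70). The count of members called in the late proximal comparison (2) was 1 with only the arrays compared, without the 24 h and without the 28 h arrays, 4 with all sham arrays pooled, and 1 to 3 with single arrays left out. With the array letter as a replicate block, Gfap stayed at 2.13, Fabp7 at 8 h at -1.82, 3 members were called, Glul (0.25) was called and S100b at 18 h (0.17) was not. Differences near 0 changed sign. Slc1a3 in distal ganglia became 0.062 with array weights, 0.117 without the 2 distal arrays outside set A, 0.077 without arrays whose letter is followed by o, 0.170 without the 18 h arrays, 0.011 and 0.068 without the array do at 1 and at 18 h (-0.091 to 0.068 over all single arrays left out), and 0.314 by 1371130_at. Its late proximal difference became -0.019 without the 28 h arrays, and -0.025, -0.033 and -0.069 without proximal array a, proximal array b or sham array c at 18 h (-0.069 to 0.19 over all single arrays left out). That of Apoe became 0.0035 with array weights, 0.112 with all sham arrays pooled, 0.00379 without the 18 h arrays and 0.000172 without proximal array c at 18 h (-0.055 to 0.000172 over all single arrays left out). S100b in distal ganglia became 0.0022 with another quantile normalization. By other probe sets Gja1 became -0.07 (late) and -0.43 (distal), and Apoe -0.0486 (distal). The causes were not tested.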
